A study of Mus musculus with 6 samples.

Results

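The cytosolic ribosome is built from a small subunit, which reads the mRNA, and a large subunit, which joins amino acids, and each protein of both is encoded by its own gene. Members were the genes whose only symbol in the array's annotation is Rps or Rpl with a number and at most one of the letters a, x and l, or is Rpsa, Rplp0, Rplp1 or Rplp2. The rule found 59 genes among 19938 with a single-symbol probe set, 22 of the small and 37 of the large subunit, measured by 215 of the 35557 probe sets on the array. The brightest probe set over all arrays stands for each gene. Of the 80 proteins of the standard mammalian ribosome, 53 are covered, 20 of 33 in the small and 33 of 47 in the large subunit. Another 16 have only probe sets with several gene symbols and are not named for a value here, 9 are not in the annotation under their symbol, and Fau and Rps3a1 have a single-symbol probe set but fall outside the rule. The other 6 members are relatives of standard genes, Rps4l, Rps27l, Rpl3l, Rpl10l, Rpl32l and Rpl39l.

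RNA of mouse yolk sac at E9.5 (day 9.5 of embryonic development) was hybridised to 6 arrays, each from 1 dissected embryo. Of these, 3 were wild-type littermates and 3 were labelled Tnrc6a (GW182) mutant, GW182gt/gt, homozygous for a gene-trap allele. Tnrc6a encodes GW182, the partner of Argonaute in microRNA silencing. Both genotype labels add "mixed" without saying what was mixed, and neither the strain nor the position of the trap is named there. All values are the authors' log2 signals, so a difference of −1 means a signal lower by a factor of 2. Where a gene's 3 values per group are listed, they are in the order of replicates 1, 2 and 3, and the first mutant value is always that of the library labelled mutant 1, for a reason given with the check of the labels.

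Ribosomal protein mRNAs are among the most abundant of growing cells, and their proteins are used together, in fixed numbers per subunit. Most start with a C followed by a run of pyrimidines, the 5′ terminal oligopyrimidine (TOP) motif, through which the growth kinase mTOR sets their translation. Yolk sacs at this stage make primitive red cells, and mutations in several of these genes cause Diamond-Blackfan anaemia in people.

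The letters around the annotated starts were searched for pyrimidine runs of this kind. RefSeq promoters of GRCm38.p6 matched 47 of the 59 genes by symbol. In the 30 bases around the annotated start, 15 on each side, a C followed by at least 4 bases that are each C or T was found on the sense strand for 30 of the 47 (63.8%), against 40.9% of 17491 protein-coding genes. A run of at least 8 such bases was found for 16 (34%), against 11.2%. The run could lie anywhere in the window, so this count is wider than the TOP motif, which begins at the first base of the mRNA. Annotated starts can lie some bases from the start a cell uses, so a window without a run says only that these letters are not in it. The following windows, 5′ to 3′ on the gene's strand, are shown because a run of at least 8 bases begins within 5 bases of the annotated start; capitals mark the run.
Rps6 (chr4:86857353-86857382, minus strand): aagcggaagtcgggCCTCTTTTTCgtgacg
Rps9 (chr7:3704026-3704055, plus strand): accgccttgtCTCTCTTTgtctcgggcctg
Rps10 (chr17:27635230-27635259, minus strand): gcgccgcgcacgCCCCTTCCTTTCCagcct
Rps18 (chr17:33955651-33955680, minus strand): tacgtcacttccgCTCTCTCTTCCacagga
Rpl27a (chr7:109519180-109519209, plus strand): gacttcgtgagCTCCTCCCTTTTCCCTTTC
Rpl28 (chr7:4792950-4792979, plus strand): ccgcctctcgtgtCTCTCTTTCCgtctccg
Rpl32l (chr10:20208424-20208453, plus strand): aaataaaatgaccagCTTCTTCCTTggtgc
Rpl38 (chr11:114668565-114668594, plus strand): agcggaagcctcgttCTTTCCCCgttctct
Rplp2 (chr7:141447636-141447665, plus strand): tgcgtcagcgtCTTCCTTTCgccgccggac
Among the genes with the lowest unadjusted p-values described next, Rps12, Rps15a, Rpl7a, Rpl12, Rpl14, Rpl22 and Rpl34 hold a run of 5 to 19 bases in the window. The following 4 are shown because they are also among those genes and hold no run in the window.
Rps13 (chr7:116334176-116334205, minus strand): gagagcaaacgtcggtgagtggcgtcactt
Rps15 (chr10:80292416-80292445, plus strand): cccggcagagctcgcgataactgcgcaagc
Rps3 (chr7:99483695-99483724, minus strand): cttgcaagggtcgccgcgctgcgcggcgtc
Rps4x (chrX:102189377-102189406, minus strand): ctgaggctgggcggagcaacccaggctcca
Over the 300 bases of the promoter table (250 before the start and 50 after it), the letters CCGGAA, the core bound by ETS factors, were found on either strand for 24 of 47 members (51.1%) against 20.9% of protein-coding genes. GGGCGG, the core bound by Sp1, was found for 27 (57.4%) against 49.2%, AAGATGG, the core of the YY1 site, for 4 (8.51%) against 7.18%, and TATAAA, the TATA box, for 6 (12.8%) against 14.8%. No 2 of these motifs contain one another, though neighbouring matches can share bases.

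Before the results, the libraries were compared with their labels. Tnrc6a read 8.40, 7.62 and 8.29 in wild type. Mutants 2 and 3 were lower, at 5.33 and 5.20, but the library labelled mutant 1 read 7.81, inside the wild-type range. The level in this library goes against its label, and it is included below unless stated. The difference of Tnrc6a was −1.99 (SE 0.65, unadjusted p = 0.0167 and adjusted p = 0.999 in limma). Xist, the RNA of the inactive X, was high in 3 arrays (9.63 or above; wild type 1, mutant 3 and the library labelled mutant 1) and low in the others (3.58 to 3.90), so both groups held arrays with and without it. Of the 17 measured markers of visceral endoderm, the epithelium of the yolk sac, 16 passed the filter on dim probe sets, as did 19 of 19 measured markers of primitive red cells. Wild type 2 stood apart in markers of trophoblast, decidua and parietal endoderm. The log2 of their summed signals was 12.66 there, against 10.98 to 11.63 in the other arrays. Of these markers, Ctsq, Prl7d1, Prl8a9 and Tpbpa were below the filter, which uses the mean over all 6 arrays. The part of these tissues in the results was not tested.

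The mutant yolk sacs held ribosomal protein mRNAs at nearly the wild-type level. No member passed the test between genotypes, and the differences were small and mostly negative. Of 57 members bright enough to test (mean log2 signal at or above 4.29), 50 read lower in the mutants, with a median difference of −0.047 on the log2 scale, a change of −3.18%. Across all 16387 tested probe sets, 47.6% read lower and the median was 0.0063. Among probe sets of other genes in the same signal range, 54.7% read lower and the median was −0.0097. Limma called 0 members at an adjusted p under 0.05 and also 0 at an unadjusted p under 0.05 in either direction. Over all tested probe sets it called 0% at the adjusted and 3.53% at the unadjusted threshold, 1.28% as lower and 2.25% as higher. For 55 of 57 members the 95% interval of the difference lay within 1.5-fold on both sides (96.5%, against 90.7% of all tested probe sets and 93.5% of those of other genes in the same signal range). The exceptions were Rps27l and Rpl34, whose intervals reached −0.65 and −0.60. In bulk tissue, less RNA per cell and fewer cells of a type cannot be told apart.

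The members varied little within a genotype, though the dimmer ones varied more. The median within-group SD was 0.0875 on the log2 scale, against 0.13 over all tested probe sets. It was 0.12 over probe sets of other genes in the same signal range. The mean log2 signals of the members ran from 4.58 to 12.54, and 43 of 57 lay above the 90th percentile of tested probe sets (9.57). The median SD was 0.077 in these 43 members and 0.15 in the other 14. Over the 6 arrays, which share each library's total scale, pairs of members had a mean correlation of 0.28, against 0.010 for pairs of all tested probe sets. The mean was 0.23 within the small subunit, 0.30 within the large and 0.28 between them. Means were higher for translation factors (0.37), ribosome biogenesis factors (0.44) and cell cycle genes (0.42), and lower for proteins of the mitochondrial ribosome (0.18).

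The differences between arrays did not follow the genotype labels. Relative to each gene's wild-type mean, the median of the small subunit genes was −0.035, 0.021 and 0.024 in wild types 1 to 3, and −0.10, −0.12 and 0.0013 in mutants 1 to 3 as labelled. The corresponding medians of the large subunit were −0.028, 0.0084 and −0.0043 in wild type and −0.078, −0.12 and 0.056 in the mutants. The library labelled mutant 1 and mutant 2 thus lay below the wild types in both subunits, while mutant 3 lay among them in the small subunit and above all of them in the large. The large subunit median in mutant 3 exceeded the small subunit median by 0.055, and in the other arrays the subunits differed by 0.028 or less. Probe sets of other genes in the same signal range had medians of −0.031, −0.025 and 0.033 in the mutant arrays in that order. These were nearer to 0 than both subunits in the first pair, while in mutant 3 the value lay between those of the subunits.

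**Figure D1:**
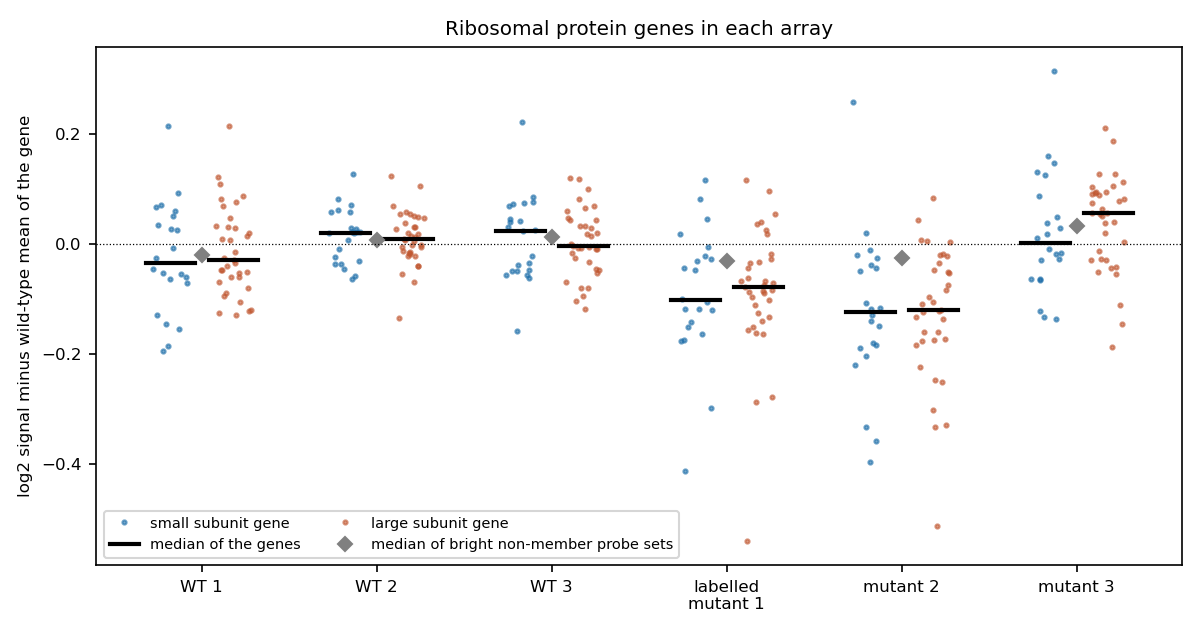
Log2 signal of each tested gene minus its own wild-type mean (y axis, log2 units) in each array (x axis), with small subunit genes in blue, large subunit genes in orange, black bars for their medians and grey diamonds for the median of bright probe sets of other genes. The black bars of the library labelled mutant 1 and of mutant 2 sit at −0.078 to −0.12, below those of every wild type, and those of mutant 3 at 0.0013 and 0.056.

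Mutant 2 was the lowest of the 6 arrays for 30 of 57 members (52.6%), against 18.4% of all tested probe sets. Mutant 3 was the highest for 22 (38.6%), against 25.6%. Both the library labelled mutant 1 and mutant 2 read below every wild type for 27 members (47.4%), against 14.2%. In 16 of these 27, among them Rpl5, Rpl23, Rps7, Rps9 and Rps20, mutant 3 read above every wild type. These 16 were 28.1% of the 57 members, against 5.96% of all tested probe sets. The opposite order, with the library labelled mutant 1 above and mutant 3 below every wild type, was seen in 4 members. They were Rpl36, Rplp0, Rplp1 and Rps14 (7.02%, against 7.58% of all tested probe sets). The dimmer probe sets of Rplp0 and Rps14 did not show this order. Without mutant 2 the count of lower members was 33 of 57 with a median of −0.011. Without mutant 3 it was 51 with −0.094, and 6 members then had an unadjusted p under 0.05 as lower (10.5%, against 4.57% of all tested probe sets): Rps13, Rps27l, Rpl10l, Rpl12, Rpl22 and Rpl34. Without the library labelled mutant 1 it was 45, with a median of −0.044.

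**Figure D2:**
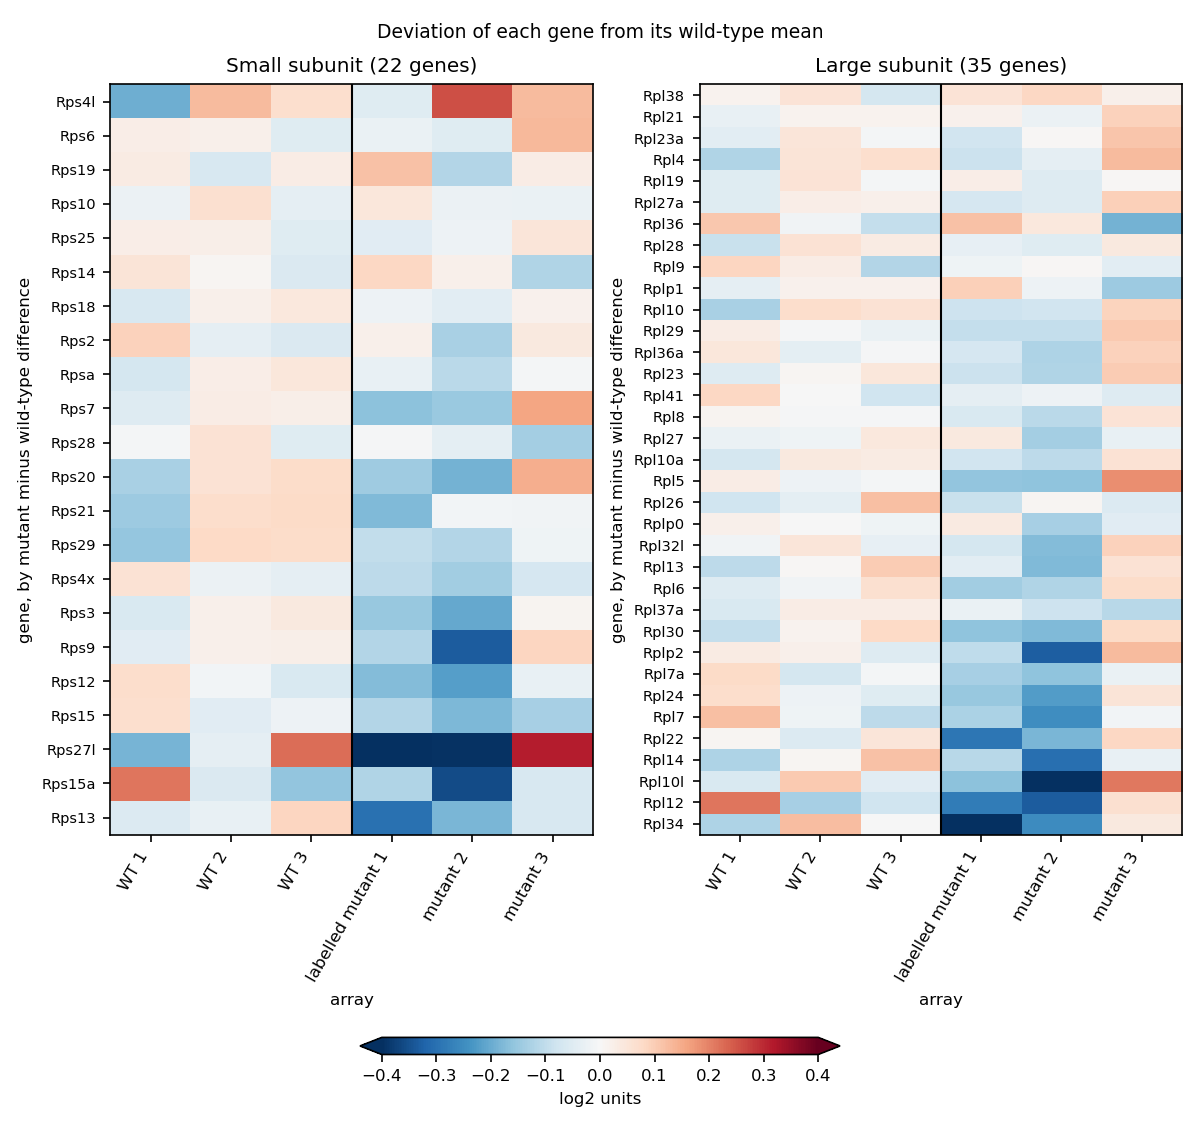
Deviation of each tested gene (rows, ordered from the highest to the lowest mutant minus wild-type difference) from its wild-type mean in each array (columns), in log2 units by colour, red above and blue below; colours saturate beyond 0.4 in either direction. Blue is most common in the columns of the library labelled mutant 1 and mutant 2, and mutant 3 is red for most large subunit genes.

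In the small subunit, 19 of 22 genes read lower in the mutants, with a median difference of −0.061. The groups did not overlap for 3 of them, Rps13, Rps15 and Rps4x, all lower (13.6%, against 3.38% of all tested probe sets lower and 5.17% higher). The separation held in 3 of 3 probe sets of Rps15, but only in the brightest of 3 for Rps13. Rps13, a protein of the body of the subunit, had the lowest unadjusted p (0.0857, adjusted p = 0.999 in limma). It read 8.69, 8.72 and 8.83 in wild type and 8.45, 8.56 and 8.68 in the mutants. Mutant 3 lay just below the lowest wild type, and the difference was −0.18 (SE 0.092), a 1.13-fold lower level. Rps15, which lies in the head near the decoding site, read 11.20, 11.09 and 11.11 in wild type and 11.02, 10.96 and 11.00 in the mutants. All mutants were below all wild types, and the difference was −0.14 (SE 0.076, adjusted p = 0.999 in limma).

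Rps4x, the X-linked copy of a protein of the body, read 10.64, 10.56 and 10.55 in wild type and 10.48, 10.44 and 10.51 in the mutants. These groups were separate as well, with a difference of −0.10 (SE 0.075), and the 5 probe sets of the gene gave differences of −0.13 to −0.10. The groups were separate in 2 of these 5 and overlapped in the other probe sets. Rps12, of the head, read 11.10, 11.02 and 10.96 in wild type and 10.85, 10.81 and 11.00 in the mutants. Mutant 3 overlapped wild type 3, and all 14 probe sets of Rps12 read lower, by −0.19 to −0.095. Several of the 14 held identical values in every array, so they do not count as separate measurements. Rps3, at the mRNA entry, differed by −0.11 (SE 0.087) with mutant 3 at 11.07, inside the wild-type range of 11.00 to 11.10. Rps15a, a protein of the body, read 8.07, 7.79 and 7.69 in wild type and 7.73, 7.49 and 7.79 in the mutants, so its wild types alone spanned most of the range.

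The 10 members of the head had a median difference of −0.061, with 9 lower, and the 10 of the body and platform one of −0.0595, with 9 lower. The positive end held Rps6, the ribosomal protein that is phosphorylated when growth signalling is active. It read 12.24, 12.24 and 12.17 in wild type and 12.19, 12.16 and 12.34 in the mutants, a difference of 0.0175 (SE 0.083), with mutant 3 alone above the wild types. Only this brightest probe set was positive. Of the 8 probe sets of Rps6, 7 read lower in the mutants, and the mean difference over all 8 was −0.021.

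In the large subunit, 31 of 35 tested genes read lower, with a median of −0.042. The groups overlapped for each of the 35 in its brightest probe set. Some other probe sets had separate groups, lower in the mutants for Rpl27 and Rplp0 and higher for Rpl21 and Rpl38. Rpl34 had the lowest unadjusted p (0.136, adjusted p = 0.999 in limma) and a difference of −0.25 (SE 0.15). It read 8.39, 8.63 and 8.51 in wild type, and 7.97, 8.26 and 8.55 in the mutants. Of these mutant arrays the first pair lay below the wild types and mutant 3 among them, so the mutants spanned more than the wild types did. Without the library labelled mutant 1 the difference of Rpl34 was −0.11.

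Rpl14 read 8.41, 8.54 and 8.65 in wild type and 8.42, 8.23 and 8.50 in the mutants, where mutant 2 alone was below the wild types. Rpl12, which lies at the base of the stalk, read 7.77, 7.42 and 7.48 in wild type and 7.28, 7.23 and 7.62 in the mutants. Rpl7 read 11.50, 11.36 and 11.27 in wild type and 11.25, 11.13 and 11.36 in the mutants. In Rpl12 and Rpl7 the library labelled mutant 1 and mutant 2 were below every wild type and mutant 3 was within their range.

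Rpl7a read 10.60, 10.46 and 10.52 in wild type and 10.39, 10.37 and 10.50 in the mutants, a difference of −0.11 (SE 0.082). Rpl22, which is not needed for protein synthesis in most cells but for T cell development, read 8.68, 8.62 and 8.72 in wild type and 8.39, 8.49 and 8.76 in the mutants. In both genes mutant 2 and the library labelled mutant 1 were below every wild type. Mutant 3 was within the wild-type range for Rpl7a and above it for Rpl22.

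Of the stalk, which recruits translation factors, Rplp0 anchors the pairs of Rplp1 and Rplp2. Rplp0 read 12.08, 12.06 and 12.04 in wild type and 12.10, 11.93 and 12.02 in the mutants. Rplp1 read 12.19, 12.24 and 12.24 in wild type and 12.32, 12.21 and 12.08 in the mutants. The library labelled mutant 1 was the highest array for both genes in these brightest probe sets. The other probe set of Rplp0 read 10.60, 10.71 and 10.60 in wild type and 10.59, 10.42 and 10.54 in the mutants. There all mutants lay below all wild types, the library labelled mutant 1 only just. Rplp2 was dimmer, at 5.51 to 5.59 in wild type and 5.46, 5.23 and 5.69 in the mutants. The 3 stalk differences were −0.047, −0.023 and −0.10 (SE 0.079 to 0.12). Among the 5 measured members at the tunnel exit, where the new chain leaves, 3 read lower and the median was −0.0071. One of them, Rpl38, known from a mouse mutant with a short tail, had the highest difference of the tested large subunit members, 0.052 (SE 0.076). It read 11.19, 11.23 and 11.11 in wild type and 11.23, 11.26 and 11.20 in the mutants, and its 4 probe sets differed by 0.042 to 0.069. Rpl21 followed at 0.029 (SE 0.075), reading 12.40, 12.44 and 12.45 in wild type and 12.45, 12.41 and 12.52 in the mutants.

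**Figure D3:**
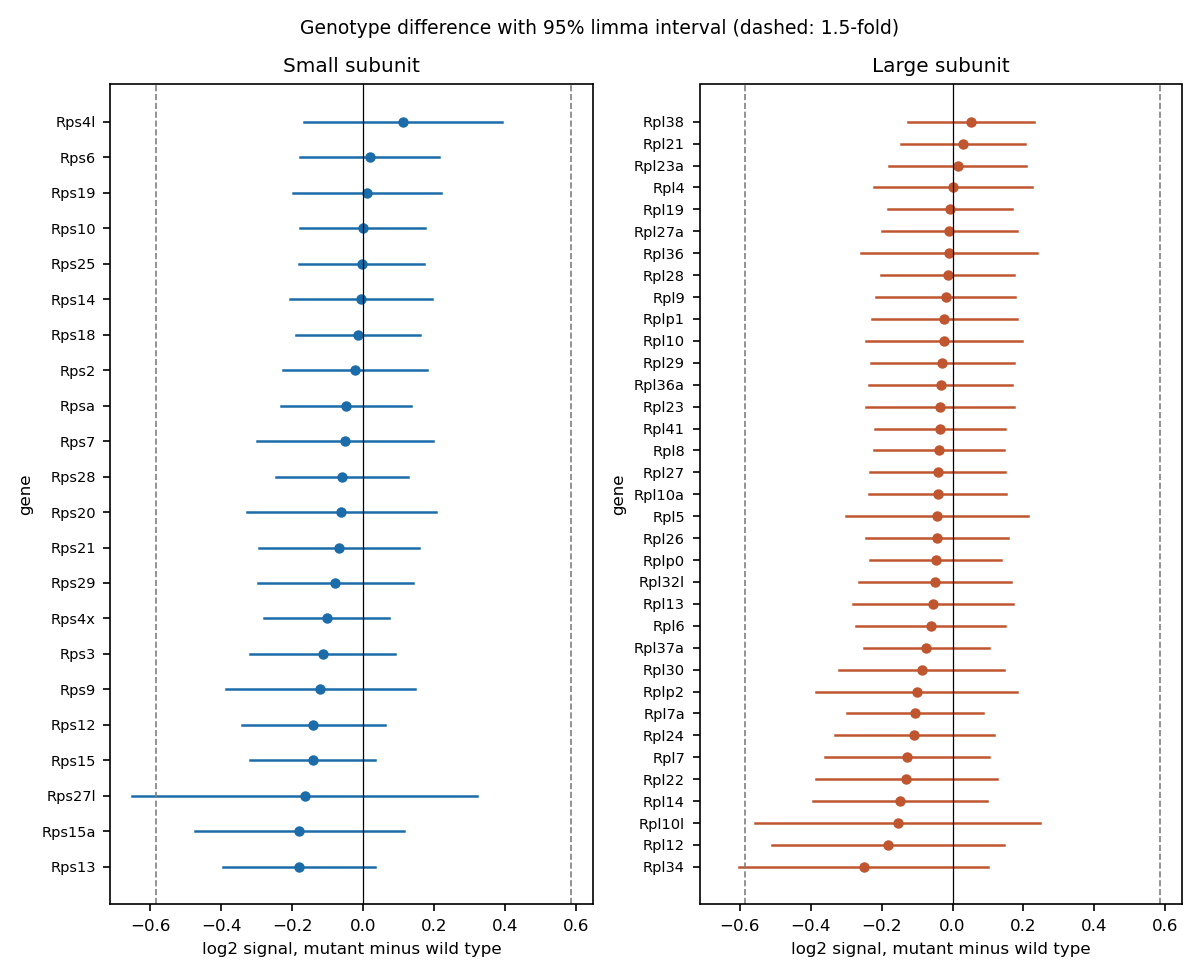
Mutant minus wild-type difference of each tested gene (points, log2 units on the x axis) with its 95% interval from limma (lines); the solid line marks 0 and the dashed lines a 1.5-fold change. Every interval crosses 0, and only those of Rps27l and Rpl34 reach past the dashed lines.

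Genes of Diamond-Blackfan anaemia are of interest in a tissue that makes red cells. The list read here does not hold every gene reported for the disease. Of the listed genes, 4 had a single-symbol probe set (Rps7, Rps10, Rps19 and Rpl5). Rps19, the most often mutated of them, read 8.06, 7.96 and 8.06 in wild type and 8.14, 7.91 and 8.05 in the mutants, a difference of 0.0096 (SE 0.089, interval −0.20 to 0.22). Rpl5, which carries a small ribosomal RNA into the large subunit and binds the p53 regulator Mdm2 when assembly fails, read 11.59, 11.54 and 11.55 in wild type and 11.40, 11.40 and 11.75 in the mutants. Rps7 read 11.45, 11.54 and 11.53 in wild type and 11.34, 11.36 and 11.67 in the mutants. In Rpl5 and Rps7 every mutant array lay outside the wild-type range, the first pair below it and mutant 3 above it, so their differences of −0.043 (SE 0.11) and −0.051 (SE 0.11) average opposite deviations. Rps10 read 11.16, 11.25 and 11.15 in wild type and 11.23, 11.16 and 11.16 in the mutants (difference −0.0021, SE 0.076), and its sign changed under other scalings.

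Markers of primitive red cells, by contrast, differed most in mutant 2. Their median deviation was −0.90 there, −0.15 in mutant 3 and −0.10 in the library labelled mutant 1, and −0.10 to 0.070 in wild type. All 19 measured markers read lower in the mutants, 0 at an adjusted p under 0.05 in limma and 4 at an unadjusted one (21.1%, against 1.28% of all tested probe sets), and the groups did not overlap for 7 (36.8%, against 3.38%). The log2 of their summed signals was 14.88 to 14.92 in wild type and 14.36 to 14.81 in the mutants. Mutant 2 is also the array with the lowest ribosomal protein medians. Visceral endoderm markers had median deviations of 0.076, 0.14 and −0.175 in mutants 1 to 3 as labelled. Their wild-type medians were −0.027 to 0.047. Of 16 tested, 11 were highest in mutant 2 and 11 were lowest in mutant 3. All ribosomal protein members together had medians of opposite sign in these mutant arrays, −0.084, −0.12 and 0.038. The part of red cell or visceral endoderm content in the ribosomal protein medians was not tested. Endothelial markers read higher in the mutants for 16 of 16, with median deviations of 0.021, 0.24 and 0.46 in the mutants.

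The relatives of standard genes were all among the dimmer members, which varied more as a set. Their within-group SDs ran from 0.0995 (Rpl32l) to 0.45 (Rpl39l, below the filter). The median SD of the 14 dimmer tested members was 0.15. Rps27l, a p53-responsive copy of Rps27, read 8.36, 8.51 and 8.77 in wild type and 8.14, 8.15 and 8.87 in the mutants, the widest spread of a tested member in either subunit. Rps4l, listed by RefSeq as a transcribed pseudogene, read 8.77, 9.09 and 9.03 in wild type and 8.91, 9.22 and 9.09 in the mutants. Its difference of 0.11 (SE 0.12) was the highest of the tested members, and its other probe set differed by −0.0094. Rpl10l, the autosomal copy of the X-linked Rpl10 that is used in male germ cells, was near the filter at 4.59, 4.76 and 4.61 in wild type and 4.49, 4.14 and 4.86 in the mutants.

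Rpl10 itself read 12.42, 12.62 and 12.61 in wild type and 12.47, 12.48 and 12.64 in the mutants, and Rpl36a, also X-linked, differed by −0.033 (SE 0.087), at 10.21 to 10.29 in wild type and 10.18, 10.12 and 10.34 in the mutants. Neither X-linked gene separated the genotypes, unlike Rps4x above. Rpl32l read 7.50 to 7.58 in wild type and 7.46, 7.36 and 7.63 in the mutants. Rpl3l, known from heart and skeletal muscle, and Rpl39l, known from testis, were below the filter and not tested. Rpl3l read 3.42 to 3.79 in wild type and 3.57 to 3.68 in the mutants. Rpl39l read 4.01, 4.33 and 3.60 in wild type and 3.85, 4.89 and 4.49 in the mutants, so mutants 2 and 3 were above the wild types and the library labelled mutant 1 among them. Outside the rule, Fau, whose product is cut to give a small subunit protein, differed by −0.051 (SE 0.087), and Rpl7l1, a relative of Rpl7 that acts in assembly, by −0.049 (SE 0.074).

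**Figure D4:**
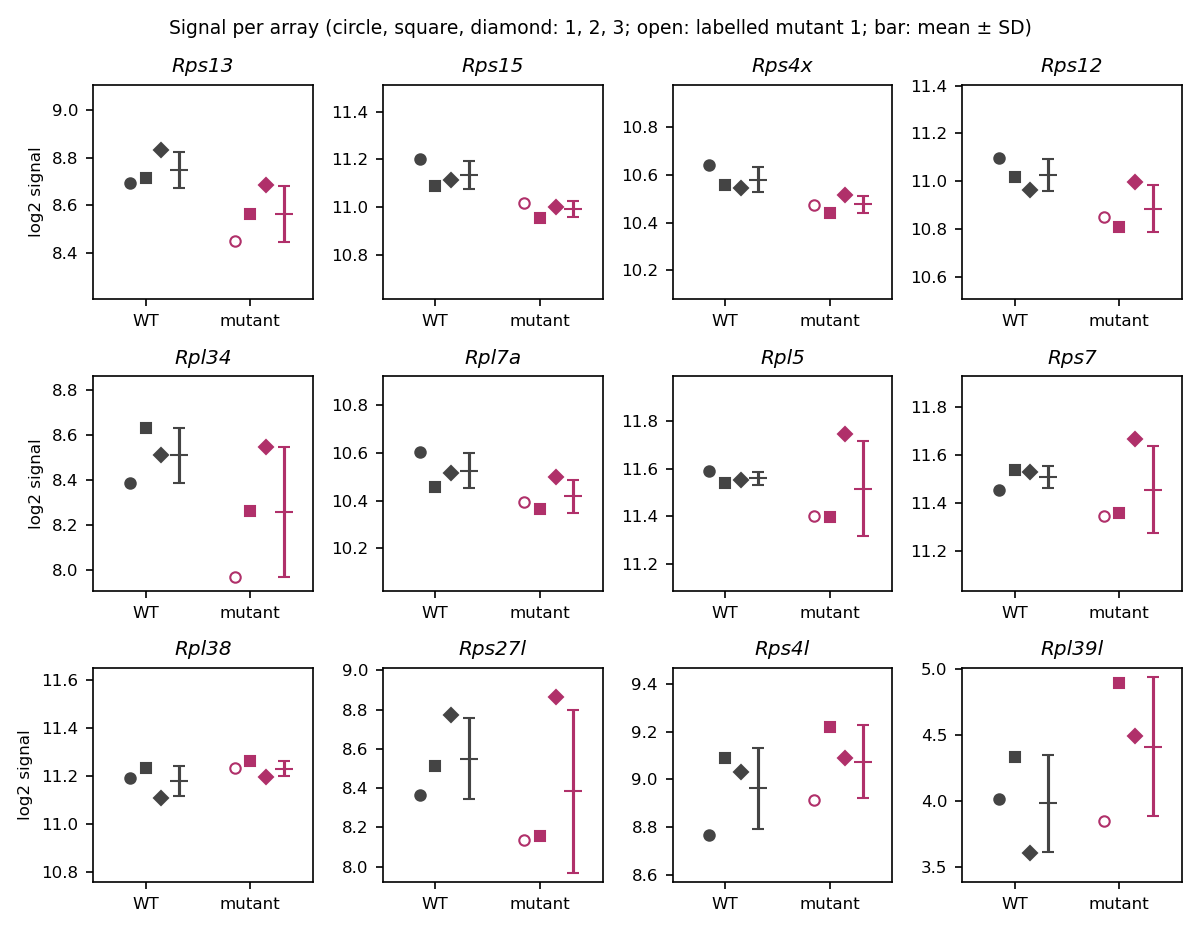
Log2 signal (y axis, each panel with its own range) of 12 genes in the wild-type (grey) and mutant (magenta) arrays; circles, squares and diamonds are replicates 1, 2 and 3, the open circle is the library labelled mutant 1, and the bar is the mean ± SD (n = 3). Rps13, Rps15 and Rps4x are separate between the groups, and in Rpl5, Rps7 and Rps27l the library labelled mutant 1 and mutant 2 lie below the wild types and mutant 3 above them.

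Many of these genes have processed copies elsewhere in the genome, and 39 of 59 members had several single-symbol probe sets, up to 14 for Rps12. Signals of near-identical copies cannot be told apart on the array. Some probe sets of the same gene, among them those of Rpl41 and several of Rps12, held identical values in every array. The counts of probe sets that follow therefore hold repeats. Of 213 tested probe sets of members, 186 read lower (median −0.043) and 0 had an unadjusted p under 0.05 in either direction. In 29 of the 39 genes with several, all probe sets had the same sign; for example all 6 of Rpl10 and all 9 of Rpl13 read lower. The 18 tested members with a single probe set had a median of −0.094, the 39 with several one of −0.035. Likewise the 14 members at or under the 90th percentile had a median of −0.14 and an SD of 0.15, the 43 above it −0.039 and 0.077. Both of these splits were chosen after the values were seen. Members with and without a pyrimidine run at the start differed little, with medians of −0.053 (24 of 28 lower) and −0.047 (17 of 17).

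Other genes of the pathway were read from lists. Ribosome biogenesis factors, which make ribosomal RNA and assemble the subunits in the nucleolus, read lower for 74 of 78 genes with a median of −0.10. Again 0 passed the adjusted test, 3 had an unadjusted p under 0.05 as lower (3.85%, against 1.28% of all tested probe sets), and the groups did not overlap for 11, all lower (14.1%, against 3.38%). Wdr12, which matures the large subunit with Pes1 and Bop1, read 8.73, 8.71 and 8.84 in wild type and 8.46, 8.36 and 8.55 in the mutants. This separation gave a difference of −0.30 (SE 0.086, unadjusted p = 0.00883 and adjusted p = 0.999 in limma). Las1l, an endonuclease of ribosomal RNA processing, read 8.23, 8.14 and 8.35 in wild type and 7.95, 7.91 and 8.14 in the mutants (difference −0.24, SE 0.097). The third was Polr1b, a subunit of RNA polymerase I, at −0.23 (SE 0.096), named after its values were seen. On the positive side were Riok2 at 0.084 and Sbds at 0.024.

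The list medians of the biogenesis factors in the arrays were −0.0005, −0.074 and 0.057 in wild type and −0.095, −0.21 and −0.024 in the mutants, with mutant 2 again lowest. Translation factors read lower for 37 of 43 genes, with a median of −0.064 and 0 past the adjusted test or an unadjusted p under 0.05. Eif5b, which joins the subunits, differed by −0.15 (SE 0.076) with separate groups, and Eif2b3 by −0.21 (SE 0.11), against Btf3 at 0.067 (SE 0.079) and Eif4g3 at 0.025 (SE 0.11). Proteins of the mitochondrial ribosome, a separate machine, were nearer to 0, with 47 of 77 lower and a median of −0.016. Mrps28 and Mrps30 differed by −0.24 (SE 0.11) and −0.20 (SE 0.11), Mrps10 and Mrps12 by 0.18 (SE 0.14) and 0.096 (SE 0.081). Cell cycle genes had a median of −0.0004, with 10 of 19 lower, Birc5 and Mcm7 at −0.093 and −0.059 and Mki67 and Aurkb at 0.075 and 0.039. Mutant 3 was the highest array for the cell cycle list, at 0.14, and mutant 2 the lowest, at −0.094.

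**Figure D5:**
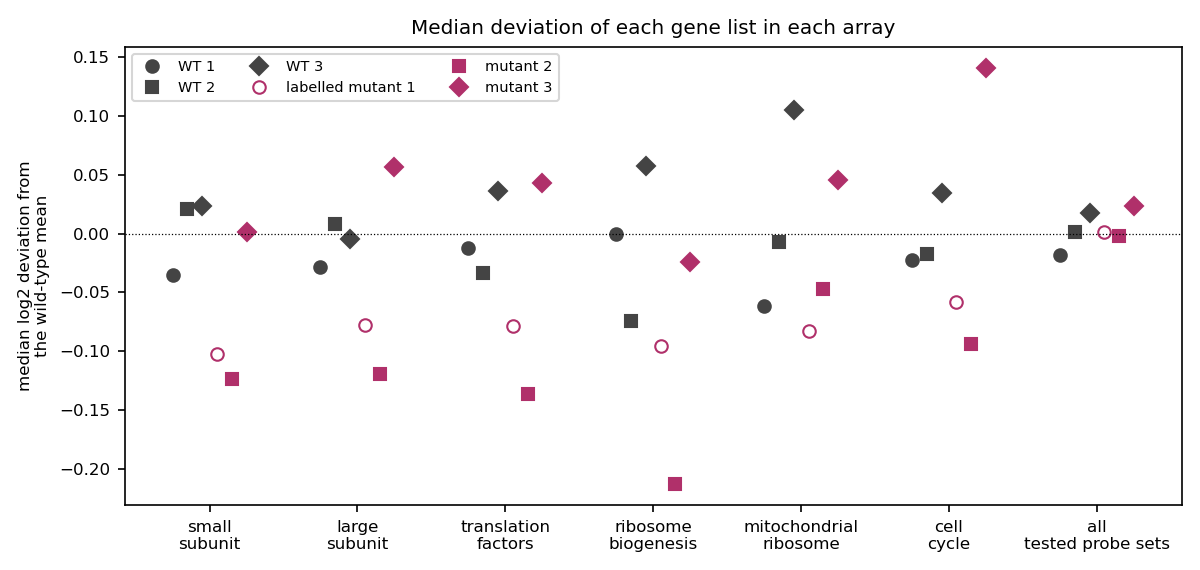
Median log2 deviation from the wild-type mean (y axis) of each gene list (x axis) in each array, with wild types in grey and mutants in magenta; the open circle is the library labelled mutant 1. Mutant 2 is the lowest array in both ribosomal subunits, the translation factors and the biogenesis factors, at −0.12 to −0.21, while all tested probe sets stay within −0.018 to 0.023.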

How the data were processed

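Total RNA of 6 individual yolk sacs was hybridised to Affymetrix Mouse Gene 1.0 ST arrays, per the series' design text. The deposited table holds the authors' normalized log2 signals. MAS5 is the only tool in the submitters' processing notes; how probes were summarised and normalized is not stated in the sources used here, and the log2 scale was read from the range (0.66 to 13.7, none negative). Array medians ran from 5.19 to 5.22, so no further normalization was applied.

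Probe sets with a gene symbol and a mean at or above the 30th percentile (4.29) were tested with limma 3.58.1 in R 4.3.3, mutant minus wild type, with Benjamini-Hochberg adjustment over 16387 probe sets. The prior added 3.47 to 4 residual degrees of freedom. With 6 arrays, their number limits the precision, and p-values measure the spread between these embryos. The code was tested on simulated data. Members and lists were chosen with earlier results of these data known, so lists get counts and medians but no p. Named members were, per subunit, the 6 with the lowest p and 2 with the highest difference. Also named were all stalk, Rpl5, X-linked, fused (Fau), paralogous and listed Diamond-Blackfan genes with a single-symbol probe set. Rpl32l and the genes of counts by array were added after their values were seen. From each other list, the 2 with the lowest p on each side were named.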

Additional observations from a re-analysis of the deposited data

How the results depend on the processing

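Medians of both subunits stayed negative under all 18 alternatives. Leaving out 1 array moved them from −0.10 to −0.020 (small subunit) and from −0.092 to −0.0036 (large). Quantile normalization gave −0.040 and −0.032, and centring on bright probe sets of other genes −0.053 and −0.034. The count of members lower at an unadjusted p under 0.05 was 0 in the reported fit. It was 0 to 6 when 1 array was left out, with 6 (10.5%, against 4.57% of all tested probe sets) without mutant 3. The count was 1 with an intensity trend (1.75%, against 1.26%), 3 with array weights (5.26%, against 2.74%) and 2 with the methods' t-test (3.51%, against 1.47%). With Xist as a covariate it was 1 (1.75%, against 1.5%), and the cause of these shifts was not tested. In a further fit 1 array was left out of each group (wild type 2, mutant 1 as labelled). There limma called 1 probe set, that of Tnrc6a (difference −3.08), and no member. The library labelled mutant 1 was set apart by its Tnrc6a level, and wild type 2 was the lowest wild type for this gene. Leaving both out thus favours the Tnrc6a call, which is no independent check of the labels. Same-numbered arrays correlated at 0.45, 0.15 and −0.11 in their deviations from the group means, and differently numbered ones at −0.45 to 0.24. With so few arrays per group, these values cannot settle whether the numbers pair the samples. With the replicate block 0 probe sets and 0 members were called, and the medians stayed at −0.061 and −0.042.

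Signs turned for genes near 0. Rps10 was 0.014 under quantile normalization, 0.0007 and 0.0064 under the centrings and 0.0097 with array weights. Array weights gave Rps6 −0.019, Rplp1 0.016 and Rps19 −0.0098, the Xist covariate Rps6 −0.0061, Rps19 −0.030 and Eif4g3 −0.030, and probe set means Rps6 −0.021. With that pair left out, values were Rpl5 0.0024, Rps7 0.020, Rps10 0.0054, Rps19 −0.076, Rpl10 0.041, Riok2 −0.016, Btf3 −0.000 and Eif4g3 −0.088. Leaving out 1 array gave ranges of −0.026 to 0.029 (Rps10), −0.044 to 0.073 (Rps19), −0.088 to 0.011 (Rpl10), −0.039 to 0.051 (Rps6), −0.16 to 0.015 (Rpl5), −0.16 to 0.0049 (Rps7), −0.22 to 0.013 (Rplp2), −0.34 to 0.024 (Rpl10l), −0.096 to 0.012 (Rpl36a), −0.12 to 0.011 (Rpl32l), −0.0023 to 0.055 (Rpl21), −0.083 to 0.038 (Rplp1), 0.030 to 0.0876 (Btf3), −0.0225 to 0.0835 (Sbds) and −0.056 to 0.10 (Eif4g3).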
